A study of Mus musculus with 6 samples.

Results

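The genes described here are 39 genes of ribosome biogenesis and of the nucleolus, chosen by name as Myc, subunits of RNA polymerase I, proteins that bind small nucleolar RNAs, assembly factors of both ribosomal subunits and abundant nucleolar proteins. These genes, and the other lists read beside them, were chosen with earlier results of these data known. A gene was a member where its symbol in the count table equalled a listed name, and all 39 were found among the 15168 genes of the table. They were compared between macrophages of young and aged wounds. The cells were live CD45+ CD11b+ F4/80+ CD64+ macrophages, sorted from full-thickness wounds of the dorsal skin of female wild-type C57BL6/J mice on Day 3 after wounding. Mice of both ages were given isoflurane as anaesthetic and buprenorphine for pain at wounding, and the labels name no allele in either group. The young group (12 weeks) and the aged group (24 months) held 3 samples each, with the letters A, B and C. The labels do not say whether a sample was 1 mouse or a pool, nor which of 2 animal houses it came from, so the p-values measure the spread between these samples.

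Ribosomes are built in the nucleolus. RNA polymerase I transcribes a long precursor of ribosomal RNA there, small nucleolar ribonucleoproteins (snoRNPs) modify its nucleotides, and assembly factors cut and fold it around ribosomal proteins into a small (40S) and a large (60S) subunit. MYC is a transcription factor known to switch on many genes at each of these steps, and the process takes up much of the energy of a growing or dividing cell.

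With age, a group of nucleolar genes fell in macrophages of Day 3 wounds while Myc itself rose. Of the 38 members with enough counts to be tested, 8 fell (Wdr12, Dkc1, Nhp2, Gnl3, Wdr75, Npm1, Nop10 and Ddx18), 1 rose (Myc) and 29 did not pass the edgeR quasi-likelihood test at an adjusted p under 0.05. The 8 genes are 21.1% of the members tested, and 7.97% of all 11878 genes tested were lower by the same rule. The 1 gene that rose is 2.63% of the members, beside 9.73% of all genes. The log2 fold change (aged minus young throughout) was negative for 34 of the 38 members (89.5%) and for 51.2% of all genes, and its median was -0.34 among members and -0.02 among all genes. With a change of more than 2-fold required as well, Wdr12 was the 1 member still lower, beside 4.2% of all genes, and no member was higher, beside 4.59% of all genes.

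The groups were fully separated for 13 members. All 3 aged samples lay below all 3 young samples for 12 of the 38 members (31.6%), and 19% of all genes tested showed this. Myc was the 1 member with all aged samples above all young samples, which 19.2% of all genes showed. For the other 25 members the samples of both ages overlapped. In a bulk sample such as these, fewer cells that use a gene and less RNA of it per cell cannot be told apart.

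**Figure D1:**
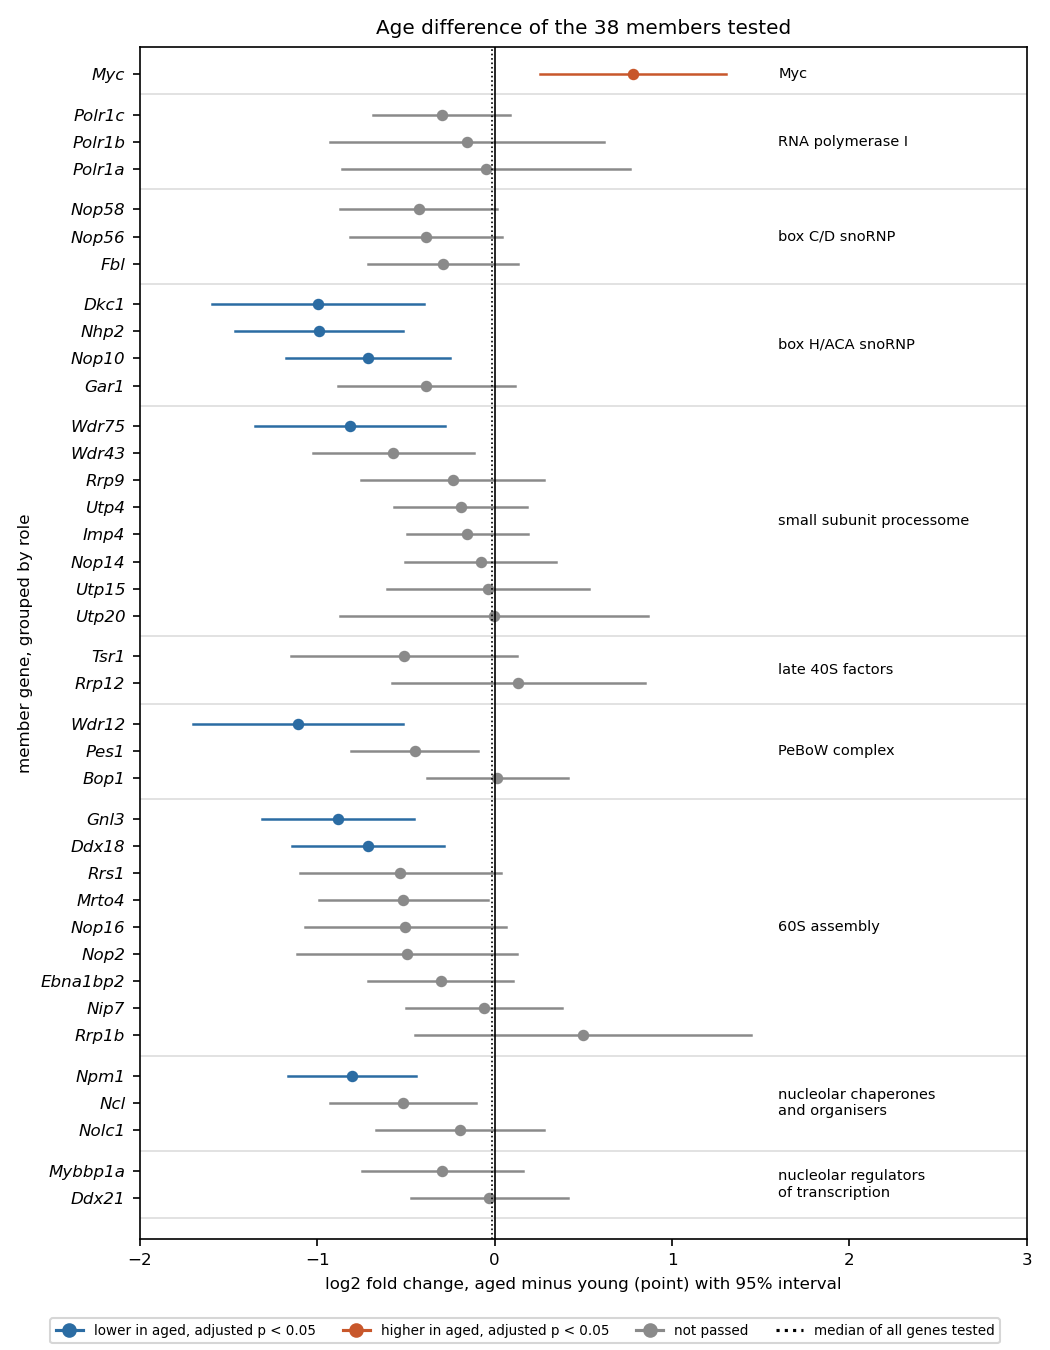
Log2 fold change of each member tested (points, x axis, aged minus young) with its 95% interval from the edgeR fit (lines), grouped by role on the y axis; colour marks the 8 members that passed as lower and Myc, which passed as higher. 34 of the 38 points lie left of 0, and the 3 of the 4 box H/ACA proteins that passed lie between -0.99 and -0.71.

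Promoters of the members were read from RefSeq (build GRCm38.p6, the same assembly as mm10), as the 250 bases before and the 50 bases after an annotated start. Entries were matched by symbol for 33 of the 39 members, and Myc, Npm1, Rrp12, Rrs1, Bop1 and Fbl had none. The promoters of the 3 lowest adjusted p-values among members with an entry are printed 5′ to 3′ on the strand of the gene, with the bases from the start site on in capitals. They are Nhp2 (chr11:51619523-51619822, plus strand), Gnl3 (chr14:31019082-31019381, minus strand) and Wdr12 (chr1:60098451-60098750, minus strand, the entry closest to the gene's annotated start among its 3).
Nhp2: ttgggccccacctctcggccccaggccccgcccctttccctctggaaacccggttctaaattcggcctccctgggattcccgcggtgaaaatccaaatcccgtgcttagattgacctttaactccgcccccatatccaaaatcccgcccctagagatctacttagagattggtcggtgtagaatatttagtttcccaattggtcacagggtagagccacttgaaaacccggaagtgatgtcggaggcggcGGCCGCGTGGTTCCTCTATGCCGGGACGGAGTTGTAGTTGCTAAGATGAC
Gnl3: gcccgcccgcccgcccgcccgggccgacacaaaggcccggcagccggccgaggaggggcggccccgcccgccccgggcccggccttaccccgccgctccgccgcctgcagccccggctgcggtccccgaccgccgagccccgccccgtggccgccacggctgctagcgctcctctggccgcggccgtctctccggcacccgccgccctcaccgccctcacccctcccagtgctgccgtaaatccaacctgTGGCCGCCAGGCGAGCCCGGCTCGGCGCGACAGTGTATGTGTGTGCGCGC
Wdr12: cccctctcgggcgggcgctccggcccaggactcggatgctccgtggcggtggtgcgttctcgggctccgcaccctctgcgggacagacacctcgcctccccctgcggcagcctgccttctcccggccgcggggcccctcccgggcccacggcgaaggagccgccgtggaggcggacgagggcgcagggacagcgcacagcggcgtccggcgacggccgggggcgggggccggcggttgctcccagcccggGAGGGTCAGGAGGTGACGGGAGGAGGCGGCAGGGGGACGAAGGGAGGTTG

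The letters CACGTG, the canonical E-box that MYC with its partner MAX is known to bind, were searched in every promoter. The motif reads the same on both strands, and no other motif was searched. Shares are of genes with a promoter entry, and a gene counted where any of its entries held the motif. It was present in 8 of the 33 members (24.2%), in 12.2% of the genes tested and in 8.09% of all genes with an entry. The 8 members are shown with up to 12 bases on either side of the motif, which is in capitals, because they are the members that carry it. In 6 of them the motif lies within the 50 bases after the start site, and in Nop2 and Imp4 it begins 60 and 121 bases before it.
Wdr43, chr17:71616220-71616249, plus strand: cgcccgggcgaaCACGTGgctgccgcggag
Pes1, chr11:3963965-3963994, plus strand: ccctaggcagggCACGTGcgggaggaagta
Tsr1, chr11:74898092-74898121, plus strand: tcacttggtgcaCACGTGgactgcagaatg
Nop2, chr6:125131811-125131840, plus strand: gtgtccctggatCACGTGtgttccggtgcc
Mybbp1a, chr11:72441355-72441376, plus strand: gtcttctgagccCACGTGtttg
Utp4, chr8:106893643-106893672, plus strand: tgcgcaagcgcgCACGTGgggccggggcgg
Imp4, chr1:34439696-34439725, plus strand: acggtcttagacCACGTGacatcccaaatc
Utp20, chr10:88826765-88826789, minus strand: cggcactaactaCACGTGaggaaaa

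Of the 7 lower members with a promoter entry 0 held the motif. Of the 29 members that did not pass 25 had an entry, and 8 of these held it (32.0%). These groups were formed from the measured values, so the shares are a description with no test. The GC content was averaged over the entries of each gene. Its median was 54.3% in the 7 members and 59.7% in the 25, beside 60.7% in genes tested with an entry. The part of GC content in the motif shares was not tested. No match says only that these letters are not in this window.

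Myc was the 1 member that rose, and Rrp1b, Rrp12 and Bop1 were the other members with a positive log2 fold change. Myc (chr15:61985391-61990374, mm10) was measured at 30.3, 18.1 and 19.4 CPM (read counts scaled to a common library size) in the young samples A, B and C, and at 35.7, 48.1 and 32.6 CPM in the aged samples A, B and C. Every aged sample lay above every young sample, and young A lay nearest to the aged group. The mean with its SD over 3 samples was 22.6 ± 6.66 CPM at the young age and 38.8 ± 8.22 CPM at the old age (log2 fold change 0.78, SE, the standard error, 0.24, edgeR adjusted p = 0.0458). Over 11 other settings the adjusted p ranged from 0.00854 to 0.175 and passed in 4. Without young A the log2 fold change was 1.05 (edgeR adjusted p = 0.00854), and without each of the other 5 samples Myc no longer passed.

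MYC works with partners and against rivals that share MAX, and the list read for this network also named Mlx and Mlxip. Of the 8 genes of this list that were tested, 2 rose (25%, beside 9.73% of all genes) and none fell (beside 7.97%) at an adjusted p under 0.05. None fell at an unadjusted p under 0.05. With 8 genes these shares are coarse. Mxi1, which encodes a repressor that competes with MYC for MAX, was at 603, 299 and 345 CPM in young and 802, 657 and 853 CPM in aged samples (log2 fold change 0.89, SE 0.26, edgeR adjusted p = 0.0402). Mxd1, a repressor of the same family, was at 282, 391 and 386 CPM in young and 522, 484 and 735 CPM in aged samples (log2 fold change 0.72, SE 0.21, edgeR adjusted p = 0.0431). For both repressors the samples of the 2 ages did not overlap. Max itself, with a log2 fold change of 0.11, did not pass (edgeR adjusted p = 0.740).

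The box H/ACA snoRNP had the lowest median log2 fold change of the roles with more than 1 member, -0.85. Of its 4 core proteins 3 fell (75%, beside 7.97% of all genes). This particle converts uridines of ribosomal RNA to pseudouridine, and the same 4 proteins are also held by telomerase. Dkc1 encodes dyskerin, the enzyme of the particle (chrX:75095854-75109777). It was at 18.6, 9.74 and 16.4 CPM in young A, B and C and at 8.06, 8.22 and 6.18 CPM in aged A, B and C (log2 fold change -0.99, SE 0.27, edgeR adjusted p = 0.0326). All aged samples were lower than all young samples, with young B the closest to them.

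Nhp2, a small RNA-binding protein of the particle (chr11:51619735-51623714), was at 68.1, 41.3 and 67.2 CPM in young and 33.2, 29.4 and 26.3 CPM in aged samples. Its mean fell from 58.9 ± 15.2 to 29.6 ± 3.45 CPM (SD, n = 3), or by a log2 fold change of -0.99 (SE 0.21, edgeR adjusted p = 0.016). The aged samples lay close together, and young B again lay between them and the other young samples. Nop10, which bridges dyskerin and Nhp2 (chr2:112261926-112263269), was at 21.7, 17.1 and 21.6 CPM in young and 9.95, 12.1 and 14.8 CPM in aged samples (log2 fold change -0.71, SE 0.21, edgeR adjusted p = 0.0413).

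Gar1, the fourth core protein, did not pass. It was at 22.7, 16.8 and 24.1 CPM in young and 13.1, 20.6 and 15.01 CPM in aged samples, so that aged B lay above young B. Its log2 fold change was -0.38 (95% interval -0.88 to 0.11, edgeR adjusted p = 0.251), an interval that holds the value of Nop10, and a difference from the other 3 proteins was not tested.

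The box C/D snoRNP, which adds methyl groups to the ribose of ribosomal RNA, had a median log2 fold change of -0.39, and none of its 3 members passed, at an adjusted or an unadjusted p under 0.05, in edgeR, or at an adjusted p under 0.05 in DESeq2. Nop58, a scaffold of the particle, was at 42.9, 35.9 and 50.4 CPM in young and 25.8, 38.4 and 31.7 CPM in aged samples (log2 fold change -0.43, SE 0.20, 95% interval -0.87 to 0.01, edgeR adjusted p = 0.156). Fbl, the methyltransferase fibrillarin, was at 34.1, 24.9 and 37.6 CPM in young and 27.3, 28.1 and 23.7 CPM in aged samples (log2 fold change -0.29, SE 0.19, edgeR adjusted p = 0.310). Both genes overlapped between the ages, because young B or aged B crossed into the range of the other group. Nop56, the partner scaffold of Nop58, had a log2 fold change of -0.39.

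Nop56 and Nop58 also carry genes of small nucleolar RNAs inside their own bodies. By the GENCODE vM21 annotation, 7 of the 39 members (17.9%) contain at least 1 snoRNA gene on the same strand, against 1.75% of all genes tested. The 7 hosts are Nop56 with 5 snoRNA genes, Nop58 with 4, Wdr43, Gnl3 and Ncl with 3 each, Tsr1 with 2 and Dkc1 with 1. Gnl3 and Dkc1 are 2 of the 8 members that fell. The snoRNAs themselves were not measured here.

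**Figure D2:**
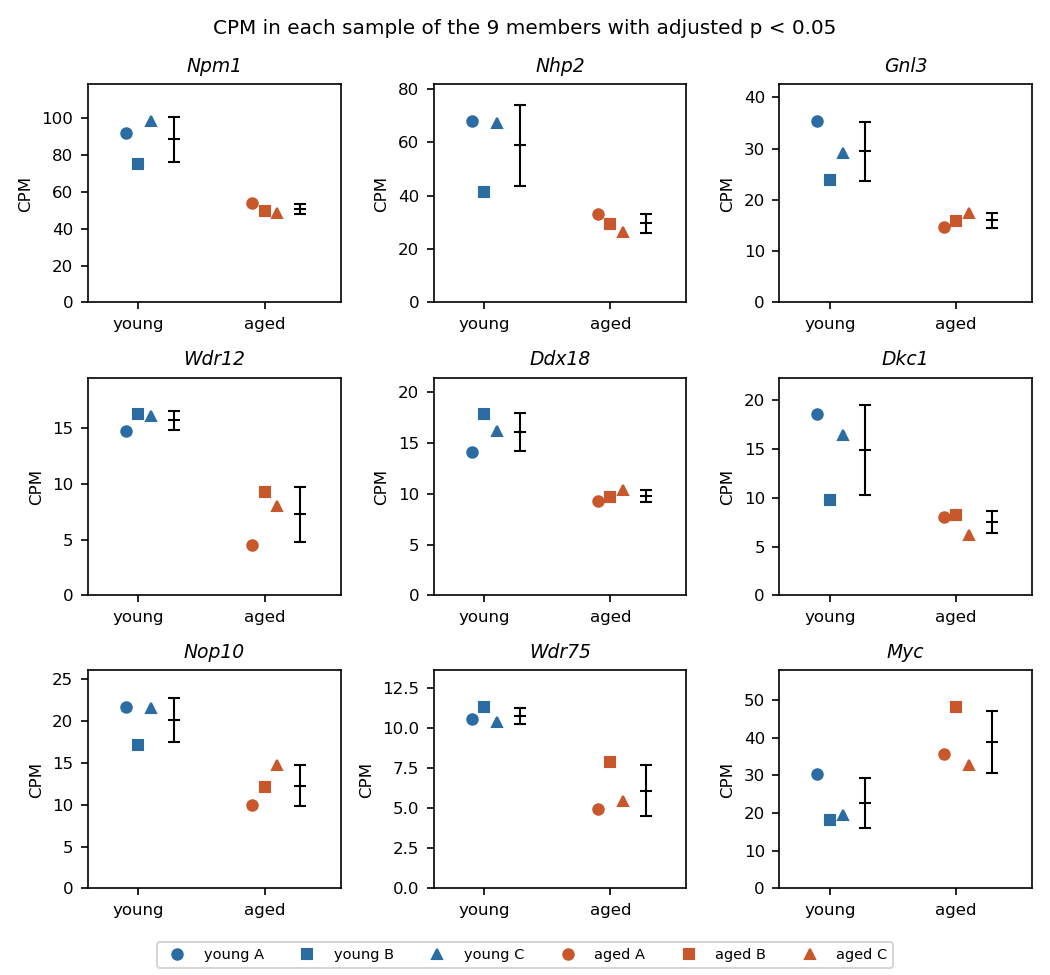
CPM (y axis, from 0) of the 9 members with an adjusted p under 0.05 in the 3 young and 3 aged samples; symbols give the sample letter and the black marks the mean with its SD. In each panel the samples of the 2 ages are separated, and for Dkc1, Nhp2, Gnl3, Npm1 and Nop10 the lowest young sample is young B.

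RNA polymerase I is the enzyme that makes the ribosomal RNA precursor. None of its 3 member subunits passed in edgeR, at an adjusted or an unadjusted p under 0.05, and none passed at an adjusted p under 0.05 in DESeq2. Polr1c, a subunit shared with RNA polymerase III, was at 20.7, 23.6 and 24.8 CPM in young and 16.4, 19.998 and 19.8 CPM in aged samples (log2 fold change -0.30, SE 0.18, 95% interval -0.69 to 0.09, edgeR adjusted p = 0.252). Its aged samples all lay below its young samples. Polr1a, the largest subunit of the enzyme, was at 3.32, 2.699 and 3.70 CPM in young and 3.92, 3.76 and 1.73 CPM in aged samples, and its log2 fold change of -0.05 had an interval from -0.86 to 0.76 (SE 0.37, edgeR adjusted p = 0.943). Polr1b, the other large subunit, had a log2 fold change of -0.16 with an interval from -0.93 to 0.62, so for both large subunits a fall as large as that of Npm1 lay within the interval.

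The small subunit processome folds and cuts the part of the precursor that becomes the 40S subunit. Of its 8 members 1 fell (12.5%), a share near the 7.97% of all genes. Wdr75, which belongs to the subcomplex that joins the nascent precursor first (chr1:45795166-45823619), was at 10.6, 11.3 and 10.4 CPM in young and 4.97, 7.90 and 5.44 CPM in aged samples. Its log2 fold change was -0.82 (SE 0.24, edgeR adjusted p = 0.0423), and the young samples lay within 1 CPM of each other. Wdr43, of the same subcomplex, was at 41.1, 30.9 and 34.4 CPM in young and 28.4, 25.0 and 18.2 CPM in aged samples, separated by age but just short of the threshold (log2 fold change -0.57, edgeR adjusted p = 0.0769).

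None of the remaining 6 processome members passed, and all overlapped between the ages. Utp20, a large scaffold and the highest of the 8 by log2 fold change (-0.0037), was at 1.83, 1.29 and 1.52 CPM in young and 1.61, 1.85 and 1.17 CPM in aged samples (SE 0.39, 95% interval -0.87 to 0.87, edgeR adjusted p = 0.997). Its sign turned with DESeq2 and with DESeq2 size factors. Utp4 (-0.19) and Utp15 (-0.04) belong to the same first-joining subcomplex as Wdr75 and Wdr43, and the log2 fold changes of these 4 members ranged from -0.82 to -0.04. Rrp9, which binds the U3 snoRNA, had a log2 fold change of -0.24, Imp4, a U3 protein, -0.15, and Nop14 -0.08. Both late 40S factors overlapped between the ages. Tsr1, a GTPase-like factor of late 40S particles, was at 14.2, 6.63 and 9.78 CPM in young and 6.94, 8.09 and 6.49 CPM in aged samples (log2 fold change -0.51, SE 0.29, edgeR adjusted p = 0.235). Rrp12, an export factor of the subunit, was at 4.92, 2.58 and 3.30 CPM in young and 4.41, 4.14 and 3.34 CPM in aged samples (log2 fold change 0.13, SE 0.32, edgeR adjusted p = 0.801).

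The PeBoW complex is a trio of proteins needed for the maturation of large subunit RNA. Of its 3 members 1 fell (33.3%, beside 7.97% of all genes). Wdr12 (chr1:60069785-60098645) was at 14.8, 16.3 and 16.1 CPM in young and 4.48, 9.30 and 8.03 CPM in aged samples. It had the lowest log2 fold change of all members, -1.11 (SE 0.27, edgeR adjusted p = 0.022), and its mean in aged samples was 46.2% of that in young samples. Pes1 was at 45.4, 45.1 and 44.5 CPM in young and 35.2, 35.5 and 28.1 CPM in aged samples, fully separated (log2 fold change -0.45, 95% interval -0.81 to -0.09), but did not pass after adjustment (edgeR adjusted p = 0.0771). Bop1, the third protein, was at 37.0, 34.4 and 42.3 CPM in young and 35.2, 46.0 and 33.8 CPM in aged samples (log2 fold change 0.01, SE 0.18, 95% interval -0.38 to 0.41, edgeR adjusted p = 0.965). The intervals of Wdr12 and Bop1 do not overlap, although the difference between the genes was not itself tested.

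Among the 9 other factors of 60S assembly, 2 fell (22.2%, beside 7.97% of all genes), and the median log2 fold change was -0.50. Gnl3 encodes nucleostemin, a GTPase of the nucleolus known from stem and dividing cells (chr14:31012433-31019152). It was at 35.4, 23.9 and 29.2 CPM in young and 14.6, 15.8 and 17.5 CPM in aged samples (log2 fold change -0.88, SE 0.19, edgeR adjusted p = 0.0165). Ddx18, an RNA helicase of early 60S particles (chr1:121553835-121567989), was at 14.1, 17.8 and 16.1 CPM in young and 9.25, 9.68 and 10.4 CPM in aged samples (log2 fold change -0.71, SE 0.19, edgeR adjusted p = 0.0326). For both genes the aged samples formed a narrow band below the young ones.

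The next 4 factors by log2 fold change lay close together and none passed: Rrs1, which helps to place the 5S particle, at -0.53, Mrto4, a placeholder for a stalk protein, at -0.51, Nop16 at -0.50 and Nop2, an RNA methyltransferase, at -0.49. Ebna1bp2 had a log2 fold change of -0.30 and Nip7 of -0.06. Rrp1b was the highest of the role, at 47.8, 13.7 and 14.9 CPM in young and 48.0, 30.4 and 29.8 CPM in aged samples. Young A matched aged A while the other 2 young samples lay below all aged samples, and the log2 fold change of 0.50 had an interval from -0.45 to 1.45 (SE 0.43, edgeR adjusted p = 0.438). Without young A the log2 fold change of Rrp1b was 1.34 (edgeR adjusted p = 0.00654).

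The lowest adjusted p of all members belonged to an abundant nucleolar protein. Npm1, or nucleophosmin, the histone chaperone that builds the granular layer of the nucleolus (chr11:33152287-33163206), was at 91.7, 74.9 and 98.4 CPM in young and 53.7, 49.4 and 48.7 CPM in aged samples. Its mean fell from 88.3 ± 12.1 to 50.6 ± 2.75 CPM (SD, n = 3), or by a log2 fold change of -0.80 (SE 0.16, edgeR adjusted p = 0.013). Ncl, or nucleolin, a chaperone of the precursor RNA, was at 333, 227 and 272 CPM in young and 218, 178 and 184 CPM in aged samples, separated by age but not past the threshold (log2 fold change -0.52, 95% interval -0.93 to -0.11, edgeR adjusted p = 0.0773). Nolc1, a chaperone of snoRNPs, was at 38.8, 24.4 and 30.8 CPM in young and 27.6, 32.1 and 22.4 CPM in aged samples (log2 fold change -0.20, SE 0.21, edgeR adjusted p = 0.548). Npm3, a relative of Npm1, held 6 to 11 counts in each sample and was not tested.

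The 2 nucleolar regulators of transcription overlapped between the ages. Mybbp1a, a protein that binds transcription factors in the nucleolus, was at 26.4, 20.6 and 25.4 CPM in young and 20.1, 23.6 and 15.3 CPM in aged samples (log2 fold change -0.29, SE 0.20, edgeR adjusted p = 0.335). Ddx21, a helicase that acts on RNA polymerase I and II transcription, was at 23.7, 15.7 and 20.4 CPM in young and 19.1, 21.9 and 17.7 CPM in aged samples (log2 fold change -0.03, SE 0.20, 95% interval -0.47 to 0.41, edgeR adjusted p = 0.936).

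**Figure D3:**
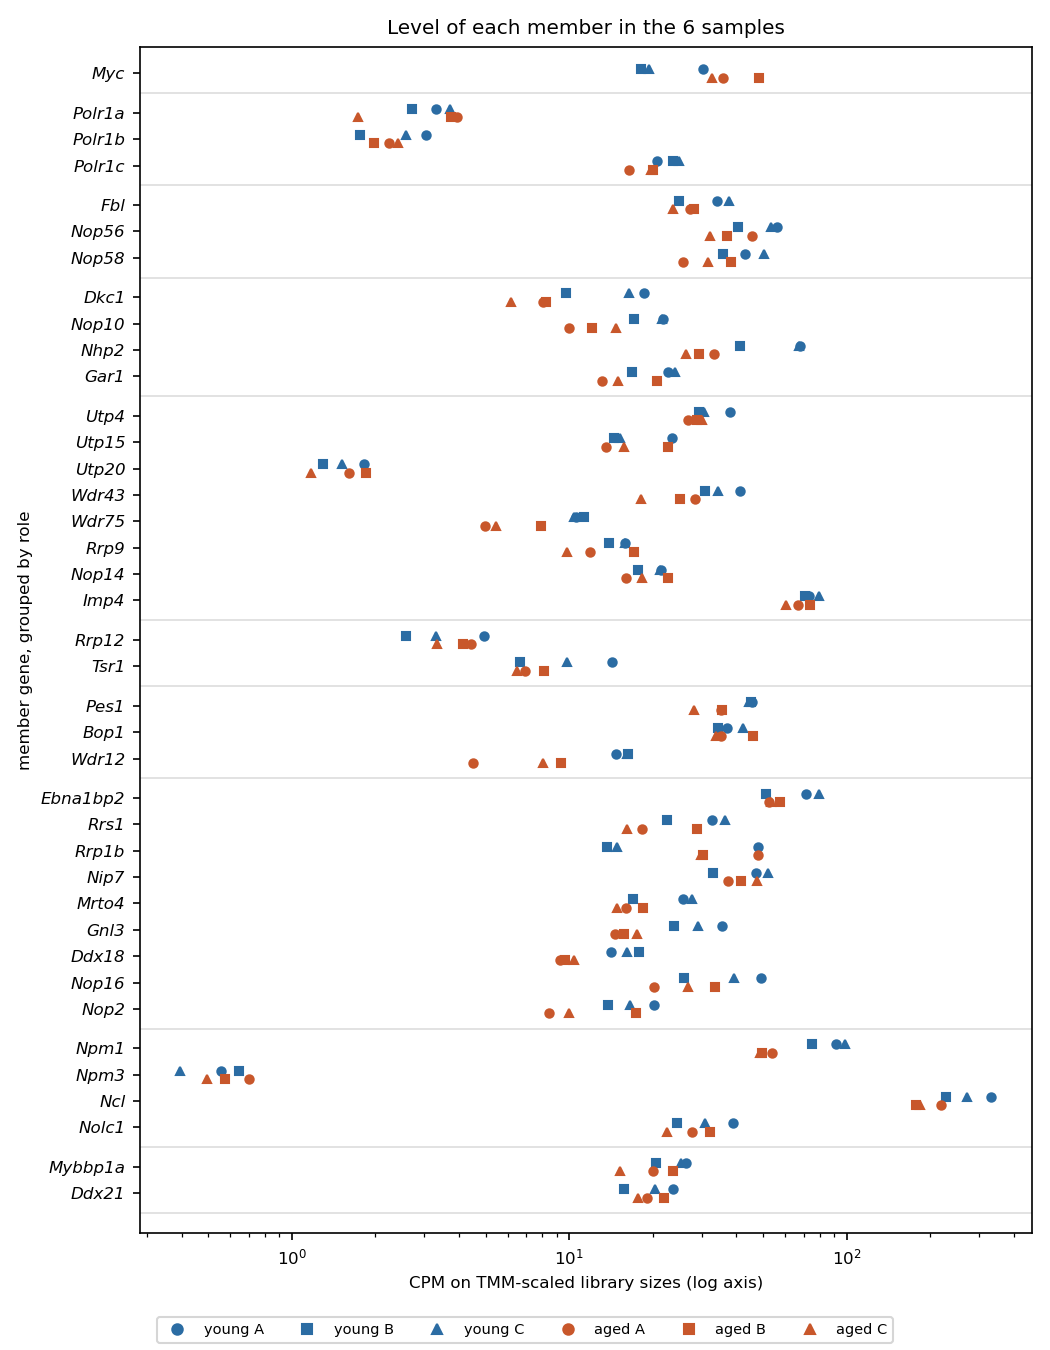
CPM of all 39 members (x axis, log scale) in the 6 samples, with members grouped by role on the y axis; blue symbols are young and orange symbols aged samples, and the shape gives the sample letter. Wdr12, Gnl3, Ddx18, Npm1 and Nhp2 show a gap between the ages, while Utp20, Bop1 and Ddx21 show none.

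Levels differed widely between members. Per kilobase of the median protein-coding transcript of GENCODE vM21, the mean level in young samples was highest for Npm1 (75.2 CPM per kilobase), followed by Nhp2 (56.5 CPM per kilobase), and lowest for Utp20 (0.175 CPM per kilobase). In aged samples Npm1 was still the highest at 43.1 CPM per kilobase, and Nhp2 stood at 28.5 CPM per kilobase. This order depends on the annotated lengths. Before division by length Ncl was the highest member, at a mean of 277 CPM in young samples. Its length was taken from 1 transcript of 8202 bases, which put it at 33.8 CPM per kilobase. A single count was worth 0.0553 to 0.0701 CPM, so that Polr1a, Polr1b, Utp20 and Rrp12 rest on few counts and have standard errors of 0.32 to 0.39 on the log2 scale.

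Averaged over the members, the samples of the 2 ages overlapped, since young B and aged B lay together. The log2 CPM of each member without Myc was centred on its mean over the 6 samples and averaged over 37 genes. This mean was 0.38, -0.08 and 0.26 in young A, B and C, and -0.23, -0.02 and -0.31 in aged A, B and C. Aged B thus lay slightly above young B, and the other 4 samples were separated by age. For the 4 box H/ACA genes alone the mean was 0.59, -0.02 and 0.56 in young and -0.45, -0.25 and -0.43 in aged samples, with no overlap. The PeBoW genes (0.23, 0.24 and 0.33 in young, and -0.48, 0.00014 and -0.33 in aged samples) and the 3 tested nucleolar chaperones (0.47, -0.03 and 0.30, and -0.15, -0.22 and -0.38) were also separated. All other roles with more than 1 member overlapped.

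Proliferation markers showed the same order of samples in part. Their mean centred level over 10 genes was 0.85, 0.06 and 0.83 in young and -1.18, -0.07 and -0.48 in aged samples, and 5 of the 10 fell (beside 7.97% of all genes) while 1 rose. Birc5, an inhibitor of cell death in mitosis, fell the most (log2 fold change -1.98, SE 0.56, edgeR adjusted p = 0.0371). Mki67 rose (log2 fold change 1.13, SE 0.33, edgeR adjusted p = 0.0412), at 1.65 to 1.94 CPM in young and 3.09 to 5.03 CPM in aged samples. The summed level of the 10 markers was 32.0 to 67.6 CPM in young and 17.2 to 28.5 CPM in aged samples, and its part in the fall of the 8 members was not tested.

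**Figure D4:**
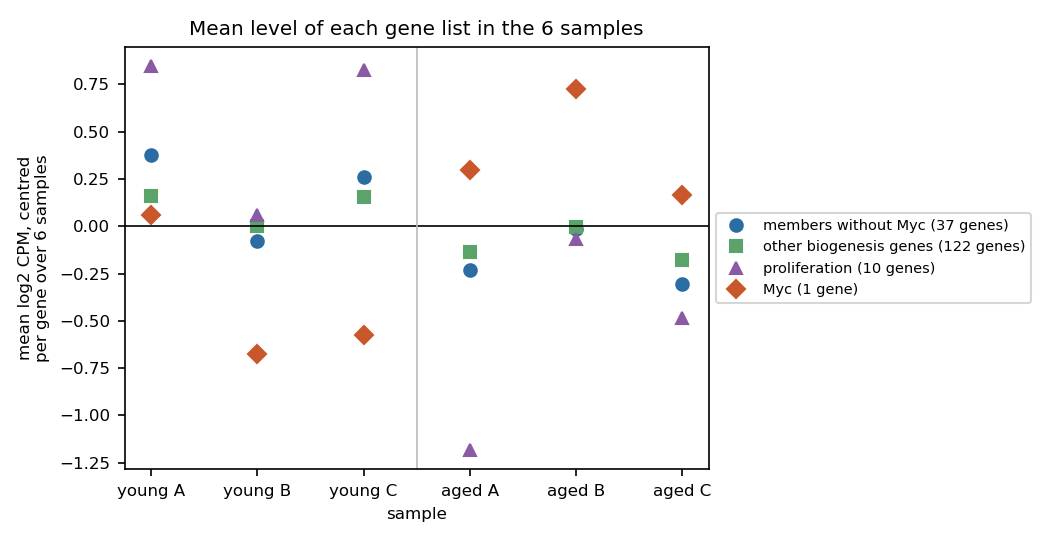
Mean log2 CPM of each gene list, centred per gene over the 6 samples (y axis), in each sample (x axis) for 37 members without Myc, 122 other biogenesis genes, 10 proliferation markers and Myc. Young B and aged B lie within 0.1 of 0 for the 3 lists, and Myc lies highest in aged B at 0.73.

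Other genes of ribosome biogenesis, which are no members, were read from the same fit. Of 126 listed, 122 were tested, 13 (10.7%) fell, beside 7.97% of all genes, and 2 (1.64%) rose, beside 9.73% of all genes. The share that fell was thus nearer to that of all genes than the share of members was. The median log2 fold change was -0.20, and 86 of the 122 had a negative value. All aged samples lay below all young samples for 36 of them (29.5%, beside 19% of all genes) and above for 7 (all genes 19.2%).

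The assembly factors of snoRNPs had the largest share of falls among these roles, 3 of 11 (27.3%, beside 7.97% of all genes). They were Znhit3 (log2 fold change -1.10, SE 0.26, edgeR adjusted p = 0.0208), Rpap3 (-1.11, SE 0.30, edgeR adjusted p = 0.0314) and Znhit6 (-1.28, SE 0.36, edgeR adjusted p = 0.0353), which act with a chaperone complex on box C/D particles. Znhit3 was at 8.79, 5.93 and 8.32 CPM in young and 3.71, 3.69 and 3.34 CPM in aged samples. The proteins of the box C/D particle itself had not passed. Of the wider RNA polymerase I machinery, 1 of 12 genes fell (8.33%, near the 7.97% of all genes). It was Cd3eap, a subunit of the enzyme (log2 fold change -1.19, SE 0.36, edgeR adjusted p = 0.0462).

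Among 45 other small subunit factors 3 fell (6.67%, beside 7.97% of all genes) and 2 rose (4.44%, beside 9.73%), both shares below those of all genes. Mphosph10, a partner of Imp4 in the U3 particle, was at 46.1, 59.4 and 60.7 CPM in young and 19.9, 30.1 and 26.5 CPM in aged samples (log2 fold change -1.12, SE 0.20, edgeR adjusted p = 0.00846). The others that fell, Utp14a (-0.93) and Nol7 (-0.62), are named after their values were seen. Rcl1, a factor of precursor cleavage, rose (log2 fold change 0.89, SE 0.18, edgeR adjusted p = 0.0129), as did Heatr1, which joins the precursor in the subcomplex of Wdr75 (log2 fold change 0.88, SE 0.24, edgeR adjusted p = 0.0322). Heatr1 was at 10.7, 8.45 and 9.71 CPM in young and 15.1, 23.7 and 14.4 CPM in aged samples, with no overlap, in the opposite direction to Wdr75.

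Among 54 other large subunit factors 6 fell (11.1%, beside 7.97% of all genes) and 0 rose at an adjusted p under 0.05, with 2 higher at an unadjusted p under 0.05 and 1 higher by DESeq2. The lowest adjusted p-values were those of Rpf2, which carries the 5S particle with Rrs1 (log2 fold change -0.999, SE 0.21, edgeR adjusted p = 0.0149), Wdr18 (-0.70, SE 0.17, edgeR adjusted p = 0.0232) and Rrp15 (-0.91, SE 0.22, edgeR adjusted p = 0.024).

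Targets of MYC outside the nucleolus were read as a further list, since Myc rose while 8 nucleolar genes fell. Of 16 tested, 2 fell (12.5%, beside 7.97% of all genes) and 1 rose (6.25%, beside 9.73%), shares near those of all genes. The log2 fold change was negative for 13 of the 16, beside 51.2% of all genes. Its median was -0.36, close to that of the members (-0.34) and below that of all genes (-0.02). Odc1, the first enzyme of polyamine synthesis, was at 858, 387 and 582 CPM in young and 1339.9, 1371 and 1263 CPM in aged samples (log2 fold change 1.12, SE 0.26, edgeR adjusted p = 0.0202). Phb and Phb2, the prohibitins of mitochondria, fell, with log2 fold changes of -1.05 (SE 0.20, edgeR adjusted p = 0.0115) and -0.66 (SE 0.16, edgeR adjusted p = 0.0225).

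**Figure D5:**
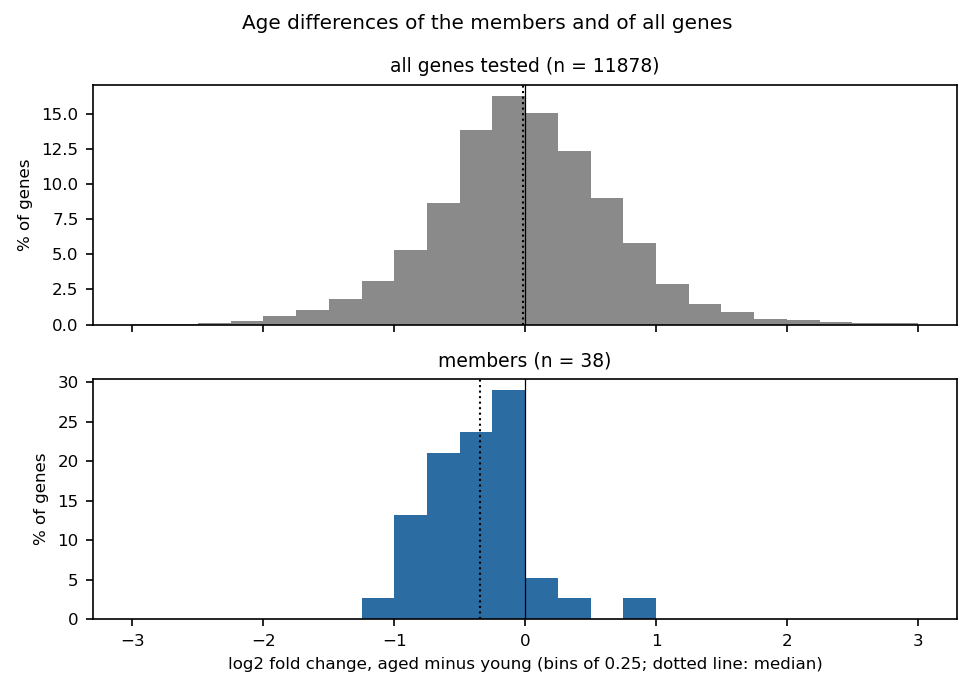
Share of genes (y axis, percent) by log2 fold change, aged minus young (x axis, bins of 0.25), for all 11878 genes tested and for the 38 members, with dotted lines at the medians of -0.02 and -0.34; 25 genes beyond 3 on either side are not drawn. Members fill the negative side, with 4 above 0.

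The counts of passing members rested on all 6 samples. In edgeR fits without 1 sample, 5 of 39 members were lower without young A (beside 9.29% of all genes) and 4 of 38 without young B (2.71%). Without aged A 4 of 38 were lower (4.26%), and without aged B 6 of 39 were lower (4.98%). By contrast, 0 passed without young C and 0 without aged C. In those last 2 fits, 11 and 8 members were lower at an unadjusted p under 0.05, and over all genes 67 and 194 were lower at an adjusted p under 0.05, beside 947 with all samples. The median log2 fold change of the members stayed between -0.45 and -0.26, and 30 to 36 members were negative. With 3 against 3 samples an exact permutation test of 1 gene cannot go below p = 0.1.

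Over 11 settings, Npm1, Nhp2 and Gnl3 each passed in 9, Wdr12 in 8, Dkc1, Ddx18 and Wdr75 each in 6 and Nop10 in 4. The highest adjusted p of the 8 lower members over these settings was 0.0762 for Npm1 and 0.153 for Nop10.

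The samples differed in other ways beside age. Total counts ran from 15270103 to 17927483. The 8 macrophage markers summed to 28131 to 43174 CPM in young and 20431 to 25623 CPM in aged samples. Such a sum weighs the most abundant markers most. By log2 fold change 4 of the 8 were negative and 4 positive, with a median of 0.04. At an adjusted p under 0.05, 1 was lower (12.5%, beside 7.97% of all genes) and 1 higher (12.5%, beside 9.73%). The genes of the sorted proteins were present in every sample, with Adgre1 (F4/80) lower and Itgam (CD11b) higher in aged samples. The sort did not exclude Ly6G, and 11 neutrophil markers summed to 704 to 1194 CPM in young and 885 to 1510 CPM in aged samples. At an adjusted p under 0.05, 3 of the 11 were higher (27.3%, beside 9.73% of all genes). By the same rule 0 were lower, beside 7.97% of all genes (1 lower at an unadjusted p under 0.05). Keratinocyte markers summed to 0.664 to 0.763 CPM in young and 1.19 to 124 CPM in aged samples, and fibroblast markers to 23.3 to 41.0 and 12.4 to 119 CPM, with aged B the highest in both. Dendritic cell markers summed to 16.1 to 54.7 and 30.3 to 93.8 CPM, lymphocyte markers to 2.18 to 2.66 and 2.16 to 2.38 CPM, and endothelial markers, of which Pecam1 made up most, to 9.74 to 11.2 and 25.0 to 30.5 CPM. The part of these markers in the result was not tested. Without aged B 6 members were lower, of which 5 (Npm1, Nhp2, Gnl3, Wdr12 and Wdr75) were among the 8 with all samples, while Dkc1, Nop10 and Ddx18 no longer passed and Nop2 did (edgeR adjusted p = 0.0499).

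Counting may blur some members. The deposited values were whole numbers (within 0.01) in all samples for 30 members and not for 9, among them Npm1, Wdr12 and Ddx18, as an estimate gives where it divides reads between several places. By the annotation, exons of 16 members share bases with a gene on the opposite strand, and the strand setting of the counting is not given. Tsr1 shares 1240 exonic bases with Srr, and the other 15 members share 5 to 209 bases.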

How the data were processed

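Bulk RNA was sequenced from 3 young and 3 aged samples of sorted Day 3 wound macrophages after SMART-Seq v4 amplification. The authors aligned reads with STAR 2.7.3a to mm10, quantified Ensembl transcripts in Partek Flow and deposited expected counts per gene, not normalised, for genes with a total of at least 10. Their table of DESeq2 fold changes and p-values and its normalised counts were not used.

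The deposited expected counts were rounded to whole numbers (the design had named counts). In R 4.3.3, edgeR 4.0.16 was used with TMM scaling, filterByExpr, quasi-likelihood tests for age and Benjamini-Hochberg adjustment over 11878 genes. A gene passed at an adjusted p under 0.05. CPM were computed on library sizes after TMM scaling, with a prior count of 2 for log2 CPM. Standard errors are the log2 fold change divided by the square root of the F statistic. Totals were 15270103 to 17927483 counts, and 1 count was worth 0.0553 to 0.0701 CPM. Samples of 1 age differed beyond counting noise and were kept as separate. DESeq2 1.42.0 and its size factors, 2 other filters, a 2-fold threshold, a block for the set letter and leaving out each sample were alternatives. The methods were tested on simulated data.

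Every member is named, and values per sample are given for Myc, for the lowest and highest log2 fold change of each role and for members that passed. From other lists up to 3 genes per role with the lowest adjusted p are named, and for proliferation markers the lowest and highest log2 fold change. Utp14a and Nol7 are exceptions, named after their values were seen, as are Max and the markers of the sort, and the values per sample of Wdr43, Pes1 and Ncl were added in the same way. The members and all lists were chosen with earlier results of these data known. Promoters are from RefSeq, and lengths, overlaps and snoRNA genes from GENCODE vM21. Plots used Python 3.11.15, pandas 2.3.3 and matplotlib 3.10.9.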

Additional observations from a re-analysis of the deposited data

How the results depend on the processing

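The median log2 fold change of the members was negative in all 11 alternatives, but the number that passed changed. The median ran from -0.45 to -0.26. With all samples and the adjusted p alone, 7 or 8 members were lower, and 1 was lower and 0 higher when a change of more than 2-fold was required. Leaving out 1 sample gave 0 to 6 members lower and 0 to 2 higher, with 0 lower without young C and 0 without aged C. Myc was the member higher in 3 of 5 alternatives with all samples, and 0 were higher with no filter on low counts (adjusted p of Myc 0.0538; 1 member higher at an unadjusted p under 0.05).

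With the set letter as a replicate block, 8 members were lower and 0 higher (Myc adjusted p = 0.0502; 2 higher at an unadjusted p under 0.05), and over all genes 912 were lower and 1202 higher, beside 947 and 1156. The letters are not taken as pairs: the deviations of same-letter samples correlated at 0.18 for A, -0.02 for B and 0.11 for C, and not every sample correlated best with its own letter.

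Of the other biogenesis genes, 5 were lower and 0 higher with a change of more than 2-fold, and leaving out 1 sample gave 0 to 13 lower and 0 to 4 higher. The other settings gave 10 to 15 lower and 2 or 3 higher.

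The sign turned for members near 0, whose range without 1 sample was -0.24 to 0.25 for Polr1a, -0.34 to 0.035 for Polr1b, -0.27 to 0.22 for Utp15, -0.14 to 0.17 for Utp20, -0.21 to 0.033 for Nop14, -0.053 to 0.43 for Rrp12, -0.12 to 0.10 for Bop1, -0.23 to 0.080 for Nip7 and -0.17 to 0.12 for Ddx21. Utp20 was at 0.0076 with DESeq2 and 0.0044 with DESeq2 size factors. The cause was not tested. Every fit without 1 sample has 2 samples in 1 group, and no setting moved the median of all genes by more than 0.1. Depth limits Polr1a, Polr1b, Utp20 and Rrp12, at 1 to 5 CPM.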
